A study of Rattus norvegicus with 2 samples.

Results

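The mature Ccl6 and Il1r2 neutrophils are 483 cells, 319 from distraction and 164 from sham tissue, out of 1919 kept neutrophils and 9220 cells that passed the filters. They were chosen by expression: among cells rich in the calprotectin genes S100a8 and S100a9 and poor in primary granule and monocyte genes, a cell is a member when the set Ccl6, Il1r2, G0s2 and Ifit3 has the highest z of 4 gene sets. The other sets mark a stage with defensin genes (Np4, Defa5, Defa11, Camp), a stage with secondary granule genes (Ngp, Lcn2, Cd177, Hp) and a stage with gelatinase granule genes (Mmp8, Mmp9, Retnlg, Lrg1). These stages are called here by their first 2 genes.

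Both libraries come from the zygomatic maxillary suture, the fibrous joint of cheek bone and upper jaw, of rats aged 4 weeks under chloral hydrate anaesthesia. In the distraction group a W-shaped nickel-titanium wire spring pulled on the suture for 7 days, and sham animals had the same exposure and drilled holes without the spring. Tissue was crushed into a suspension and single cells were caught in the microwells of a BD Rhapsody cartridge, so blood and marrow cells in the tissue are included. Each group has 1 library, and no source used here gives the strain, sex or number of animals.

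The libraries held 32078960 UMIs, or counted molecules, in 4889 distraction cells and 29924342 in 5351 sham cells. After filtering, 4037 distraction cells had a median of 4161 UMIs and 5183 sham cells a median of 3033. The distraction table reaches down to 125 UMIs per cell and the sham table to 920, and 601 distraction cells lie below the shallowest sham cell. Of the cell barcodes, 22 occur in both libraries, and 1 of these is a member, in the sham library. All intervals below are 95% intervals for counting error, and no difference between the libraries has a replicate check.

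Neutrophils mature in bone marrow through ordered waves of granule protein synthesis, from primary granules with defensins over secondary granules to gelatinase granules. They stop dividing along the way and later enter the blood. Mature cells carry receptors for chemokines and microbes, and make cytokines and chemokines when stimulated. Il1r2 encodes a decoy receptor that binds interleukin 1 without signalling, Ccl6 a CC chemokine of rodents, G0s2 an inhibitor of triglyceride lipase and Ifit3 an interferon-induced antiviral protein. Slfn4, a schlafen family gene of myeloid cells in mice, marks the same cells and was not used by the rule.

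Members made up 27.1% of kept distraction neutrophils (24.6 to 29.8) and 22.1% of kept sham neutrophils (19.1 to 25.2), a ratio of 1.23 (1.01 to 1.49). The Mmp8/Mmp9 stage held 22.0% of the distraction neutrophils and 19.5% of the sham neutrophils. Shares of the Ngp/Lcn2 stage were 30.9% and 35.7%, and of the Np4/Defa5 stage 20.0% and 22.7%, in the distraction and sham libraries. Of the 4 stages, the members had the one interval of the ratio that lay above 1, and its lower bound was close to 1. In 5 of 9 other ways of choosing cells or members the interval reached 1, with a ratio of 1.15 (0.951 to 1.40) when z was computed within each library and 1.11 (0.904 to 1.36) in cells with at least 2000 UMIs. Over all cells that passed, members were 7.90% of the distraction library and 3.16% of the sham library (ratio 2.50, 2.06 to 3.03), while all kept neutrophils were at 29.1% and 14.3% (ratio 2.03, 1.85 to 2.23). Since shares of all cells depend on which other cells each library caught, more neutrophils and fewer other cells cannot be told apart.

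**Figure D1:**
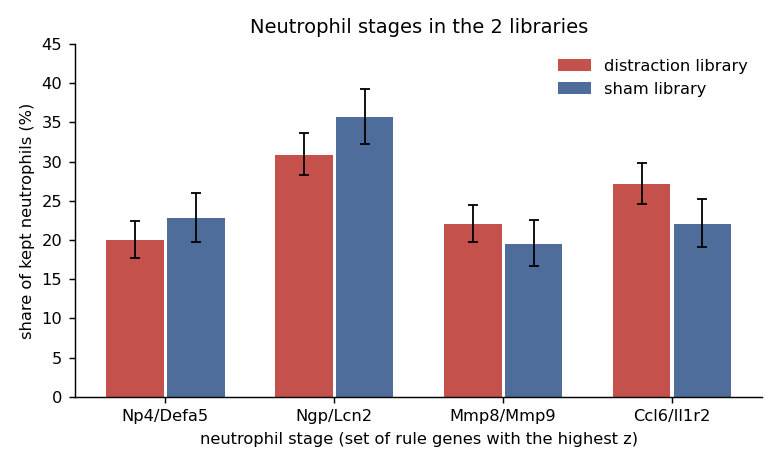
Share of kept neutrophils (%, vertical axis) in each of the 4 stages (horizontal axis), with the distraction library left of the sham library. Bars are shares and lines exact 95% intervals for counting error. Members are at 27.1% of the distraction and 22.1% of the sham library.

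Members were the shallowest of the 4 stages. Distraction members had a median of 2511 UMIs and 799 genes per cell, and sham members 2594 UMIs and 837 genes, against 3590 and 3505 UMIs in the Mmp8/Mmp9 stage and 14330 and 10182 UMIs in the Np4/Defa5 stage. Mitochondrial genes took a median of 2.26% of UMIs in distraction members and 2.53% in sham members. Depth moved with the stage, and its part in the differences between stages was not tested.

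The border of the group lies towards the Mmp8/Mmp9 stage, which was the second-highest set in 93.7% of distraction members and 93.3% of sham members. Within 0.1 z of that border there were 24 distraction and 12 sham members on the inside, and 8 and 11 cells on the outside. Cells just inside had 6692 CPM (counts per 1e6) of Ccl6 among distraction cells and 3602 CPM among sham cells, and cells just outside 6473 and 4973 CPM, so in sham the cells outside had more of it. A margin of at least 0.5 z was reached by 215 distraction and 111 sham members. All 4 genes of the set had a UMI in 84.0% of distraction members and 77.4% of sham members.

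The genes of the rule describe the group and were not tested in it. Ccl6 had 7765 CPM in distraction members and 7526 CPM in sham members, against 1563 and 1619 CPM in the Mmp8/Mmp9 stage and 14.5 and 4.11 CPM in the Np4/Defa5 stage. Il1r2 had 5494 CPM in distraction members and 5513 CPM in sham members, against 3124 and 3113 CPM in the Mmp8/Mmp9 stage. Since cells of both libraries became members by a joint z over these genes, no comparison between the libraries is read from their levels. Ifit3 had 2646 and 2615 CPM in distraction and sham members and 263 and 189 CPM in the Mmp8/Mmp9 stage. G0s2 had 6164 and 5277 CPM in distraction and sham members, with 2734 and 2697 CPM in the Mmp8/Mmp9 stage.

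Slfn4 followed them without being part of the rule. It is among the markers chosen with earlier results of these data known, so its level in members is a description. Its level was 6982 CPM in distraction members and 5223 CPM in sham members, 1784 and 1045 CPM in the Mmp8/Mmp9 stage, and between 77.7 and 132 CPM in the earlier stages. Distraction members had 1.34 times the sham level (1.27 to 1.40). In the Mmp8/Mmp9 stage the same ratio was 1.71 (1.55 to 1.89), in the Ngp/Lcn2 stage 1.46 (1.17 to 1.82) and in the Np4/Defa5 stage 1.40 (1.17 to 1.68). In the B class, defined below, Slfn4 had 44.1 CPM in distraction cells and 28.1 CPM in sham cells. The higher Slfn4 level of the distraction library was thus seen in the other stages and outside the neutrophils as well. The part of free RNA was not tested.

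**Figure D2:**
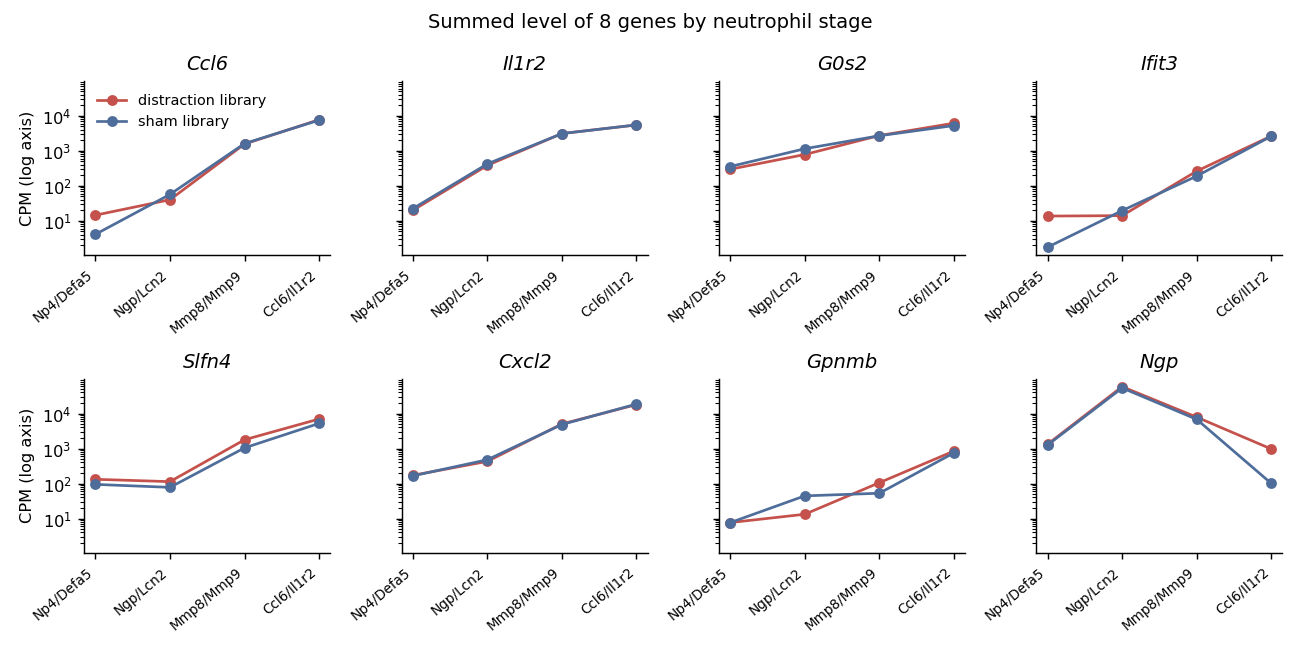
Summed level (CPM, log axis) of 8 genes in the 4 neutrophil stages, from the Np4/Defa5 stage at the left to the Ccl6/Il1r2 members at the right, with 1 line per library. Ccl6, Il1r2, G0s2, Ifit3, Slfn4, Cxcl2 and Gpnmb are highest in the members of both libraries, while Ngp is highest in the Ngp/Lcn2 stage.

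Mmp8, Mmp9, Camp and Np4 belong to the rule's other sets, so the choice of members shaped their levels, which are given as a description. Mmp8, the neutrophil collagenase, had 5877 CPM in distraction members and 5899 CPM in sham members, against 10903 and 9834 CPM in the Mmp8/Mmp9 stage. Mmp9, gelatinase B, had 887 and 1035 CPM in distraction and sham members, against 4026 and 3738 CPM there and 1087 and 1239 CPM in the Ngp/Lcn2 stage. Camp, the cathelicidin gene, was at 1120 and 946 CPM in distraction and sham members and at 18709 and 17175 CPM in the Ngp/Lcn2 stage. The defensin gene Np4 had 209 and 358 CPM in distraction and sham members, against 185 and 192 CPM in the B class, cells that should lack it. The B class holds the cells outside the kept neutrophils in which B-cell markers had the largest summed share. Distraction members thus stood near the B class in Np4, and the part of free RNA was not tested.

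Set against the other kept neutrophils, members had 739 of 2388 genes past 1.5-fold higher in both libraries (30.9%) and 653 past 1.5-fold lower (27.3%), or 58.3% either way. Because the same cells were sorted by their expression, these numbers and the gene values that follow describe the group, and no test is drawn from them. Isg15, a ubiquitin-like interferon-induced protein, had 217 CPM in distraction members and 255 CPM in sham members, against 7.10 and 3.20 CPM in the other neutrophils. A UMI of Isg15 was found in 23.5% of distraction members and 13.4% of sham members, and 1 sham member held 22.9% of the counts there. Irf7, a transcription factor of the interferon response, had 504 and 375 CPM in distraction and sham members, against 20.6 and 8.53 CPM. Cd274, which encodes the checkpoint ligand PD-L1, had 346 and 358 CPM in distraction and sham members, against 9.52 and 12.5 CPM.

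Gpnmb, a transmembrane glycoprotein of myeloid cells, had 845 CPM in distraction members and 749 CPM in sham members, against 22.9 and 28.8 CPM in the other neutrophils. Cxcl2, a chemokine that attracts neutrophils, had 18031 and 18665 CPM in distraction and sham members, against 922 and 934 CPM. Ccl2, a chemokine for monocytes, had 886 and 1030 CPM in distraction and sham members, against 63.8 and 25.3 CPM, and 30.1% of distraction and 34.8% of sham members had a UMI of it. The other leading genes were Slfn4, Mllt6, Ccrl2 (a chemerin-binding receptor), Steap4 (a metalloreductase), Ifit1bl, Hcar2 (the niacin receptor), Aif1, Ebi3 (a subunit of interleukin 27) and Oasl. Each was at least 13 times higher in members than in the other kept neutrophils, pooled over their stages, in both libraries. In most of the leading genes the adjoining Mmp8/Mmp9 stage lay closer to the members than this pool. That stage had 5038 and 4858 CPM of Cxcl2 in distraction and sham cells. Oasl had 756 and 714 CPM in members and 264 and 268 CPM there, and Ifit1bl 543 and 569 against 221 and 217 CPM. Isg15 (32.4 and 5.86 CPM) and Cd274 (38.6 and 58.6 CPM) were far lower there.

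The 10 genes lowest in members belong to earlier stages. Ms4a3, a gene of granulocyte progenitors, had 1 count in distraction members and 0 in sham members, against 1531 and 492 counts in the other neutrophils. Kif11 and Aurkb, genes of the mitotic spindle, had 1 count each in distraction members and 0 in sham members. RatNP-3b, a defensin gene, stood at 393 and 555 CPM in distraction and sham members, against 41522 and 31981 CPM. Chit1 (chitotriosidase), Arhgap11a, Nkg7, Retn (resistin), Rogdi and Orm1 completed the set. In distraction and sham cells of the Mmp8/Mmp9 stage, Ms4a3 (0 and 1.95 CPM), Kif11 (0 and 3.91 CPM) and Aurkb (0 and 7.81 CPM) were near 0 too. Arhgap11a and Nkg7 were also low there, and RatNP-3b was not above the members at 376 and 250 CPM. Only Chit1, Retn, Rogdi and Orm1 stood higher there than in members in both libraries.

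Without the genes of the rule, whose direction the choice of members fixed, 15 of 18 tested interferon-induced genes and 10 of 10 chemokine and chemokine receptor genes were past 1.5-fold higher in members in both libraries, against 30.9% of all genes. Past 1.5-fold lower were 10 of 12 cell cycle genes and 7 of 9 immature neutrophil genes, against 27.3% of all genes. The interferon list without Ifit3 had a median log2 ratio of 2.85 among distraction cells and 2.97 among sham cells, against 0.14 and 0.08 over all genes. The cells were sorted by stage and the other stages pooled. These counts too are a description, and they do not set the members apart from the Mmp8/Mmp9 stage. For genes of circulating neutrophils 12 of 14 were higher and 2 lower. Among them Csf3r, the G-CSF receptor, had 581 and 560 CPM in distraction and sham members, against 98.2 and 90.4 CPM in the other neutrophils. The chemokine receptor Cxcr2 had 566 CPM in distraction members and 585 CPM in sham members, against 520 and 631 CPM in the Mmp8/Mmp9 stage, so it did not set these stages apart.

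Some receptors of circulating neutrophils were low in the members. Fpr1, a receptor for formyl peptides, had 12.9 CPM in distraction members and 7.02 CPM in sham members, against 67.9 and 37.1 CPM in the Mmp8/Mmp9 stage. Fpr2 had 21.2 and 25.8 CPM in distraction and sham members, against 119 and 129 CPM. Cd14, a co-receptor for endotoxin, had a UMI in 3.76% of distraction and 4.88% of sham members, against 3.09% and 3.65% of B-lineage cells. The shares in members were thus close to those in B-lineage cells, and the part of free RNA was not tested.

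Interleukin 1 genes stood high in the members of both libraries. Il1b had 17225 CPM in distraction members and 16364 CPM in sham members (ratio 1.05, 1.02 to 1.08), against 7561 and 7024 CPM in the Mmp8/Mmp9 stage. Il1rn, the receptor antagonist, had 2111 and 2526 CPM in distraction and sham members (ratio 0.836, 0.774 to 0.902). Nlrp3, the sensor of the inflammasome, had 357 and 248 CPM in distraction and sham members (ratio 1.44, 1.15 to 1.81). Ccl3, a chemokine for monocytes and neutrophils, had 19020 and 19866 CPM in distraction and sham members, and 8286 and 8508 CPM in the Mmp8/Mmp9 stage.

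The genes whose level followed the score of the Ccl6 set most closely over kept neutrophils, by Pearson's r of log values per cell, were Clec4d, Slfn4, Lilrb4, Cxcl2, Fth1, B2m, Il1rn and Jaml. Clec4d, a C-type lectin receptor of myeloid cells, had r of 0.85 over 1176 distraction cells and 0.84 over 743 sham cells, and Jaml, an adhesion molecule, 0.71 and 0.70. Depth differed between these cells and moved with the stage. Its part in r was not tested, and r is given as a description. Clec4d had a UMI in 99.4% of distraction members and 100% of sham members, against 2.94% and 3.23% of B-lineage cells.

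Among themselves the members varied in the interferon-induced genes. Ifit3 had a UMI in 85.0% of distraction members (80.5 to 88.7) and 80.5% of sham members (73.6 to 86.3), against 1.62% and 0.591% of B-lineage cells. Median depths were 2511 and 2594 UMIs in distraction and sham members, and 3232 and 2829 in B-lineage cells. With each cell thinned to 1000 UMIs, which left out 1 distraction member, Ifit3 was found in 71.4% of distraction and 67.1% of sham members. Per 10000 UMIs, Ifit3 ran from 0 over a median of 18.3 to 243 in distraction members and from 0 over 14.6 to 182 in sham members. Ccl6 had a median of 67.0 and a 10th to 90th percentile range of 17.9 to 160 in distraction members, and 64.8 and 18.0 to 137 in sham members.

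Slfn4 moved with Ifit3 from cell to cell, with r of 0.46 over 319 distraction members and 0.47 over 164 sham members. Irf7 had a UMI in 160 of 271 distraction and 66 of 132 sham members with Ifit3, against 14 of 48 and 4 of 32 of those without it. Retnlg, a resistin-like protein gene, moved with Mmp8 (0.48 and 0.47). Depth varied among members, from 595 to 9791 UMIs in distraction and from 1046 to 5116 UMIs in sham. Its part in these pairings was not tested, and the values are descriptions.

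**Figure D3:**
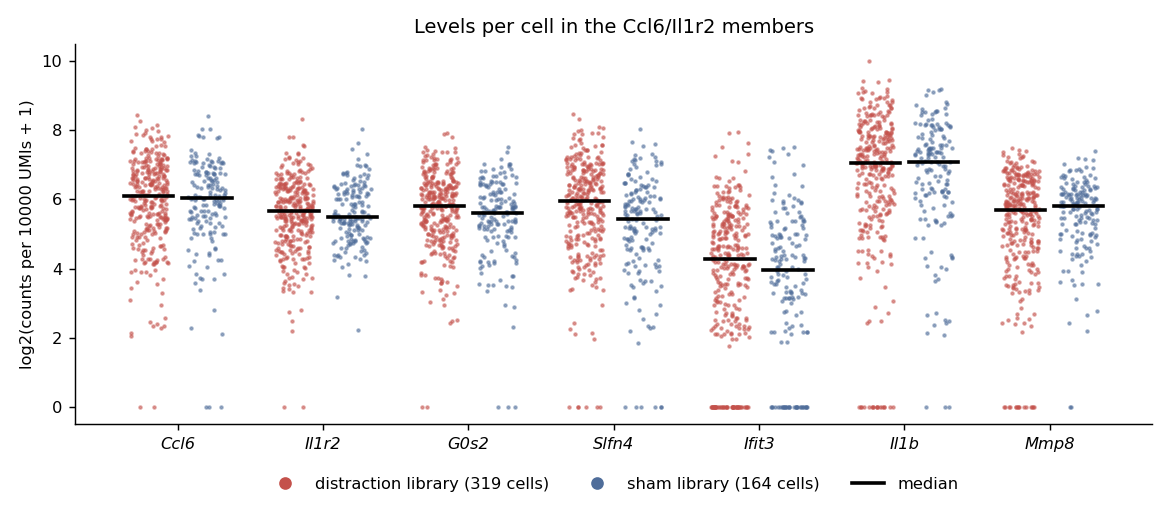
Level per cell of 7 genes (horizontal axis) in the members, as log2 of counts per 10000 UMIs plus 1 (vertical axis), with distraction cells left of sham cells. Each point is 1 of 319 distraction or 164 sham cells, and black lines are medians. Ifit3 has a band of cells at 0, whereas Ccl6, Il1r2 and G0s2 are found in nearly every cell.

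Between the libraries, most genes tested in the members were within 1.5-fold. Of 2189 genes, 134 were past 1.5-fold higher in distraction members (6.12%) and 189 past 1.5-fold lower (8.63%), or 323 in all (14.8%). For 231 of the 323 the interval of the ratio lay on 1 side of 1. The median log2 ratio over all genes was -0.01. Slfn4 was not past 1.5-fold. The genes of circulating neutrophils stayed under that fold in 12 of 12 tested, of the NADPH oxidase in 5 of 5, of pattern recognition in 14 of 14 and of the interleukin 1 system in 5 of 5, Il1r2 of the rule among them. With 14.8% of all genes past the fold, lists of this size would hold few such genes. These counts do not set the lists apart from all genes.

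Hmox1, haem oxygenase 1, which breaks down haem, was 2.09 times higher in distraction members (1.86 to 2.37), with 1652 CPM in distraction members and 789 CPM in sham members. It had a UMI in 52.0% of distraction and 39.6% of sham members, against 33.4% and 24.9% of B-lineage cells. In the Mmp8/Mmp9 stage Hmox1 stood at 1733 and 762 CPM in the distraction and sham libraries (ratio 2.28, 2.04 to 2.55), in the Ngp/Lcn2 stage at 683 and 646 CPM (1.06, 0.977 to 1.15), in the Np4/Defa5 stage at 805 and 621 CPM (1.30, 1.21 to 1.39), and in B-lineage cells at 127 and 95.7 CPM. The interval thus lay above 1 in the members, in the Mmp8/Mmp9 stage and in the Np4/Defa5 stage, with the larger ratios in the 2 late stages.

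Thbd, thrombomodulin, which turns thrombin to an anticoagulant role, was 2.42 times higher in distraction members (1.90 to 3.12). It had 454 CPM in distraction members and 187 CPM in sham members, from 135 of 319 and 42 of 164 cells. In the Mmp8/Mmp9 stage Thbd had 100 CPM in distraction cells and 117 CPM in sham cells (ratio 0.856, 0.613 to 1.20), an interval that does not overlap that of the members. Thbd had a ratio of 1.03 (0.743 to 1.45) in the Ngp/Lcn2 stage and of 1.22 (1.01 to 1.49) in the Np4/Defa5 stage. Irs2, an adaptor of insulin and cytokine receptors, had 127 and 51.5 CPM in distraction and sham members (2.46, 1.55 to 4.10), against ratios of 1.14 (0.761 to 1.75) in the Mmp8/Mmp9 stage, 1.37 (1.02 to 1.87) in the Ngp/Lcn2 stage and 1.12 (0.827 to 1.52) in the Np4/Defa5 stage. Both genes thus had an interval above 1 in an earlier stage as well. The differences between stages were not tested.

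Of 22 interferon-induced genes tested, 4 were past 1.5-fold higher in distraction members, against 6.12% of all genes, and 2 lower, against 8.63%. The list's median log2 ratio was 0.05. Ifit3 of the rule is among the 22 genes, and its own ratio is not read. Ifi27 had 197 CPM in distraction members and 86.6 CPM in sham members (2.28, 1.59 to 3.35), and Ifi27l2b, its paralog, 197 and 93.6 CPM (2.11, 1.49 to 3.06). Isg20, an exonuclease, had 95.2 and 39.8 CPM in distraction and sham members (2.39, 1.41 to 4.31), and Gbp2, a guanylate-binding protein, 62.3 and 23.4 CPM (2.66, 1.34 to 5.87). Rsad2, or viperin, was lower with 58.8 and 93.6 CPM (0.628, 0.406 to 0.976), and Stat2 had 51.7 and 81.9 CPM (0.631, 0.396 to 1.01). Without Ifit3 in the rule the log2 ratio of Rsad2 was -0.12, no longer past the fold. In the Mmp8/Mmp9 stage Ifi27 had a ratio of 2.95 (1.98 to 4.55) and Gbp2 of 1.02 (0.596 to 1.80).

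Further genes past 1.5-fold higher were Bcl2a1, a survival factor of the BCL2 family, with 1302 CPM in distraction members and 805 CPM in sham members (1.62, 1.43 to 1.83), and Ccr1, a receptor for Ccl3, with 847 and 529 CPM (1.60, 1.38 to 1.87). Ier3, an early response gene, had 1038 and 623 CPM in distraction and sham members (1.67, 1.45 to 1.92), and Spi1, the transcription factor PU.1, 287 and 169 CPM (1.70, 1.30 to 2.24). With S100a8 and S100a9 at 5% of UMIs or more the log2 ratio of Spi1 was 0.063 and that of Ccr1 0.53, and with cells thinned to 1000 UMIs in 1 draw 0.16 and 0.31, so both calls were lost. Ier3 was at 0.498 with a margin of at least 0.5 z, also under the fold. In the Mmp8/Mmp9 stage the ratio was 1.48 (1.12 to 1.98) for Bcl2a1, 1.41 (1.21 to 1.65) for Ccr1 and 1.38 (1.21 to 1.59) for Ier3. Spi1 had 0.915 (0.760 to 1.10) there. In the Ngp/Lcn2 stage Ier3 had a ratio of 0.801 (0.734 to 0.874). Among ranked genes, which had to stand at 10% or more of their level in the cell class with most of them, the highest ratios belonged to rare ones. Mtus1 had 50 counts in distraction members and 4 in sham members (6.28, 2.30 to 23.9) and Cdkn2b, an inhibitor of the cell cycle, 57 and 7 counts (4.09, 1.86 to 10.6). With S100a8 and S100a9 at 5% or more the log2 ratio of Mtus1 was 0.56, under the fold. Polr2g, Ndufaf7, Rab5b, Senp6, Vapa and Tmem50a ranged from 2.29 to 3.30 times.

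Vegfa, the growth factor of vessels, was lower in distraction members, with 342 CPM in distraction members and 606 CPM in sham members (0.564, 0.475 to 0.669). It had a UMI in 36.4% of distraction members and 47.0% of sham members, against 2.79% and 2.09% of B-lineage cells. The Mmp8/Mmp9 stage had far less Vegfa, 42.8 CPM in distraction cells and 68.3 CPM in sham cells (0.627, 0.389 to 1.01). In the earlier stages the ratio lay on the other side of 1, at 1.28 (0.981 to 1.68) in the Ngp/Lcn2 stage and 1.23 (1.05 to 1.45) in the Np4/Defa5 stage. The members' log2 ratio of -0.82 was -0.39 with S100a8 and S100a9 at 5% of UMIs or more and -0.35 with cells thinned to 1000 UMIs, both short of 1.5-fold.

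Other genes lower in distraction members included stress and early response genes. Gadd45b, a stress gene, had 248 CPM in distraction members and 517 CPM in sham members (0.479, 0.395 to 0.581), with a ratio of 0.575 (0.406 to 0.814) in the Mmp8/Mmp9 stage. Of 18 immediate early genes tested, Fosb, Klf4, Jun and Atf3 were past 1.5-fold lower, against 8.63% of all genes, and 0 higher, against 6.12%. The list's median log2 ratio was -0.13, and 0.042 among cells with at least 2000 UMIs. Single sham members held 33.3% of the sham counts of Atf3, 23.6% of Fosb, 20.4% of Jun and 18.2% of Klf4. Without each gene's highest cell the log2 ratios of Jun and Atf3 were -0.48 and -0.18, under the fold, while Fosb and Klf4 kept their calls. Jun had 370 and 609 CPM in distraction and sham members (0.608, 0.514 to 0.720), yet its log2 ratio was 0.36 with cells thinned to 1000 UMIs in 1 draw. The ratio of Jun was below 1 in the other stages too, at 0.514 in the Mmp8/Mmp9, 0.704 in the Ngp/Lcn2 and 0.810 in the Np4/Defa5 stage. Fos and Egr1, at ratios of 0.797 and 1.02, were not past the fold.

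Cd55, a complement inhibitor, had 384 CPM in distraction members and 616 CPM in sham members (0.624, 0.529 to 0.737), and Icam1, an adhesion ligand, 92.9 and 145 CPM (0.640, 0.453 to 0.907). With S100a8 and S100a9 at 5% of UMIs or more their log2 ratios were -0.12 and -0.30, under the fold. Cxcl1, a neutrophil chemokine, had 221 and 368 CPM in distraction and sham members (0.601, 0.484 to 0.748), but its log2 ratio was 1.23 among members with S100a8 and S100a9 at 5% of UMIs or more. Scarb1, a lipoprotein receptor, had 57.6 and 159 CPM (0.362, 0.245 to 0.530), Gabbr1 48.2 and 138 CPM (0.349, 0.228 to 0.529) and the transcription factor gene Maf 18.8 and 79.6 CPM (0.236, 0.122 to 0.440), in distraction and sham members. Scarb1 and Gabbr1 were lower in the Mmp8/Mmp9 stage too, with ratios of 0.324 and 0.451. Id2, Fcgr2b, Plk2, Chac1, Prpf4b, Zfp598, Thbs1, Atp2a2, Tmf1 and Zfp703 were also past 1.5-fold lower. Of the genes named between the libraries, Fosb, Atf3, Plk2, Fcgr2b, Stat2 and Ndufaf7 also changed sign under at least 1 other processing choice. Fabp5 had 3 counts in distraction members and 31 in sham members, of which 1 cell held 45.2%.

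**Figure D4:**
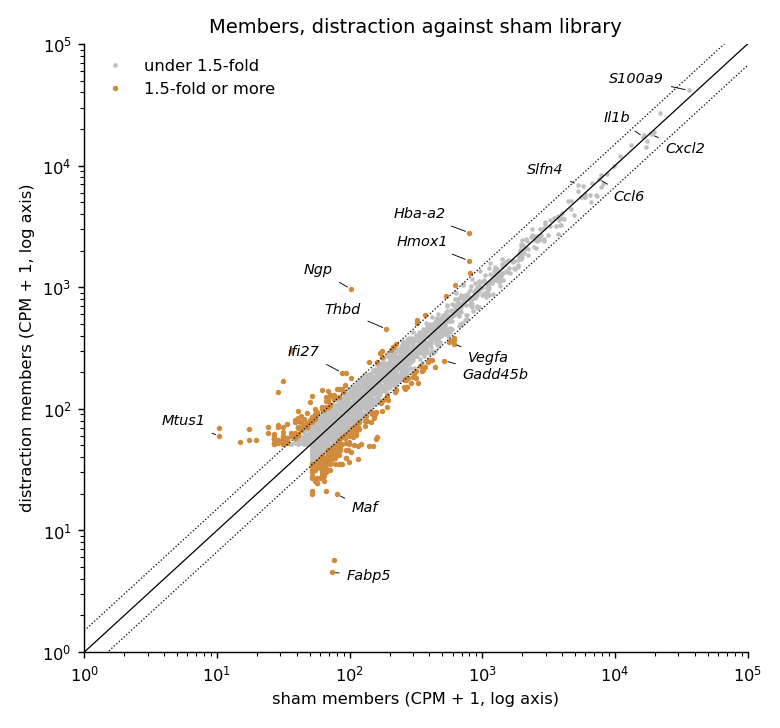
Level of 2189 genes in sham members (horizontal axis) and distraction members (vertical axis), each as CPM plus 1 on log axes, with 1 point per gene. The solid line marks equal levels and the dotted lines 1.5-fold. Hmox1 and Thbd lie above the upper line, Vegfa and Gadd45b below the lower line, and Il1b near the middle, as does Ccl6, a gene of the rule.

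**Figure D5:**
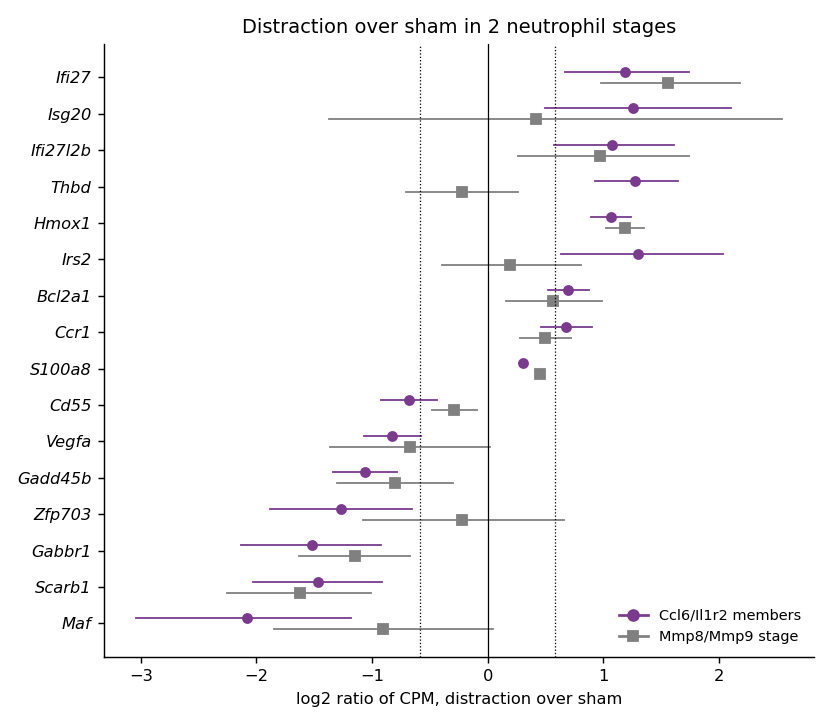
Log2 ratio of CPM, distraction over sham (horizontal axis), of 16 genes in the members (circles) and in the Mmp8/Mmp9 stage (squares), with exact 95% intervals for counting error. The dotted lines mark 1.5-fold. Hmox1 is higher in both stages, whereas Thbd is higher in the members, with a ratio of 0.856 in the Mmp8/Mmp9 stage.

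Summed markers of other cell types stood in the members far below their level in their own class. These classes were assigned by the same markers, so a high level there was set in advance. The filters on Vcan and Fn1 and on Mpo, Elane, Prtn3 and Ctsg also held the monocyte and granulocyte progenitor sums low. The sums are thus a description. Erythroid markers reached at least 5 UMIs in 20 distraction members (6.27%) and 15 sham members (9.15%), and eosinophil and basophil markers in 3 distraction (0.940%) and 6 sham members (3.66%). B-cell markers summed to 56.4 CPM in distraction members and 105 CPM in sham members, against 2842 and 3145 CPM in the B class, with Igll1, Vpreb1 and Pax5 at 0 in both. Monocyte and macrophage markers summed to 157 and 136 CPM in distraction and sham members, against 6043 and 6117 CPM in their own class, with F13a1 and C1qa at 0. Eosinophil and basophil markers summed to 415 and 321 CPM, granulocyte progenitor markers to 69.3 and 115 CPM and stromal markers to 113 and 239 CPM, in distraction and sham members. Cd3e and Cd3d of T cells were at 0 in both. Erythroid markers summed to 3306 CPM in distraction members and 892 CPM in sham members, and 1 distraction cell held 54.6% of the Hba-a2 counts.

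Single cells held much of the counts of some genes. Ngp, a secondary granule gene of the rule, had 971 CPM in distraction members and 101 CPM in sham members, a ratio of 9.64, the highest of all genes compared, and 1 distraction cell held 50.8% of its counts. Without the cell that held most of it in each library Ngp had 406 and 37 counts in distraction and sham members, a ratio of 5.51. Its log2 ratio of 3.26 was -0.13 with S100a8 and S100a9 at 5% of UMIs or more and 0.15 with a margin of at least 0.5 z. Prg2, an eosinophil granule gene, had 168 and 30.4 CPM in distraction and sham members (ratio 5.52), and 1 distraction cell held 72.0% of its counts. Without the cell with most of it in each library its ratio was 1.83. Cd74, the class II invariant chain, had 4 counts in distraction members and 32 in sham members, of which 1 cell held 65.6%.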

How the data were processed

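Cells of the rat zygomatic maxillary suture were measured in 1 distraction and 1 sham library. Per the file headers, the authors used the BD WTA Rhapsody Analysis Pipeline 1.5.1 to make the deposited counts, whole numbers of molecules (UMIs) per gene and cell with no scaling. The submitters' processing notes name Rnor_6.0 and Seurat 3.6 without a role. No source used here says how barcodes were called cells or genes annotated.

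Cells needed 500 UMIs, 200 genes and a mitochondrial share under 25%. Neutrophils were kept where S100a8 and S100a9 made up at least 2% of UMIs, Mpo, Elane, Prtn3 and Ctsg under 1%, and Vcan and Fn1 under 5 UMIs. Over these cells 4 sets of 4 genes were scored by the mean natural log of 1 plus counts per 10000, z-scored over both libraries together, and the members are the cells whose highest z is that of Ccl6, Il1r2, G0s2 and Ifit3. The members and the gene lists were chosen with earlier results of these data known. No doublet caller was run here. As an alternative, cells with at least 5 UMIs of another cell type's markers were left out.

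Counts were summed per library and scaled to counts per 1e6 (CPM). A ratio of distraction over sham carries an exact 95% interval from the conditional binomial of 2 counts, and a share an exact Clopper-Pearson 95% interval. All intervals cover counting error only, not animals, dissections or cells. No p-value is given, since each group is 1 library and has no replicate check. Genes with at least 50 CPM in 1 library and 30 counts over both were compared, and "past 1.5-fold" means a ratio of at least 1.5 either way. Log2 ratios use a pseudocount of 1 CPM. The call was tested on simulated counts.

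The genes named by rule are those of the 4 sets and Slfn4, the 12 highest and 12 lowest ratios between the libraries, the 15 highest and 10 lowest between members and other kept neutrophils, up to 4 genes of each list, and the 8 genes most correlated with the Ccl6 set. Ranked genes needed a symbol and left out those of haemoglobins, immunoglobulins, ribosomal proteins and mitochondria. They had an interval on 1 side of 1 and stood at no less than 10% of their level in the cell class with most of them. Other genes were named after their values were seen, and a few genes are not reported here. Alternatives changed the cell filters, the membership rule, the scaling, the minimum level, the fold, the depth per cell and the weight of single cells. Python 3.11.15, numpy 2.4.6, scipy 1.17.1, pandas 2.3.3 and matplotlib 3.10.9 were used.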

Additional observations from a re-analysis of the deposited data

Results flagged for a closer look

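In 3 genes the members differed from the other kept neutrophils in opposite directions in the libraries, by 1.5-fold or more in each, and the differences between the libraries were not tested. Cd24, a surface glycoprotein of immature leukocytes, had a log2 ratio of members over the others of 0.77 for distraction and -0.97 for sham, and 1 distraction member held 54.3% of its 46 counts there. Senp6, a SUMO protease, stood at 0.58 for distraction and -1.25 for sham, on 52 and 11 counts in the members. Slc4a1, the anion exchanger of red cells, stood at 2.06 for distraction and -1.33 for sham, and 1 distraction member held 81.7% of its 60 counts.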

How the results depend on the processing

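No paired analysis was possible because each group has 1 library. The share of members among kept neutrophils was 24.5% for distraction and 22.1% for sham with at least 2000 UMIs per cell, and the interval of their ratio then reached 1, as it did in 5 of 9 alternatives that changed membership. With S100a8 and S100a9 at 5% of UMIs or more the shares were 22.5% in distraction and 17.1% in sham, and with a margin of at least 0.5 between the highest and second z 18.3% and 14.9%. Genes past 1.5-fold numbered 202 higher with that margin, 261 higher and 301 lower with a minimum of 10 CPM, and 38 higher and 40 lower at 2-fold, against 134 and 189. Of 56 named genes past 1.5-fold, 11 held their call under all 15 alternatives. These were Hmox1, Thbd, Irs2, Ifi27, Ifi27l2b, Vapa and Tmem50a on the higher side and Gadd45b, Gabbr1, Scarb1 and Zfp703 on the lower. Without the stricter fold, 13 of the 56 held under the other 14 alternatives, now with Bcl2a1 and Klf4. A call also ended where a gene fell under the minimum level.

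Of 990 alternative values of single genes and lists, 38 changed sign, 22 of them of genes and lists past 1.5-fold and 16 of values that lay within 0.14 of 0 on both sides (10 of Il1r2 and 6 of Ifit3, Ccl6 and the interferon, immediate early and chemokine medians). With S100a8 and S100a9 at 5% or more, log2 ratios of Plk2 0.27, Np4 0.74, Cxcl1 1.23, Fcgr2b 0.017 and Atf3 1.003 turned positive, and Ngp -0.13, Slc4a1 -1.05, Hba-a2 -0.12 and the erythroid list median -0.12 negative. With cells thinned to 1000 UMIs in 1 draw, Ndufaf7 -0.18 turned negative and Jun 0.36, Atf3 0.65, Stat2 0.041 and Col1a1 0.60 positive. Without cells holding other types' markers, Hbb -0.13, Slc4a1 -0.79 and Ahsp -0.62 turned negative, and without each gene's highest cell Slc4a1 -0.50, Ahsp -0.52 and Stfa2l1 -0.021. Stfa2l1 was also at -0.32 with the margin of 0.5, and Fosb at 0.035 with at least 2000 UMIs. The cause was not tested.

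The limits are 1 library per group and the depth, 850878 UMIs in distraction members and 427166 in sham members.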

Other observations

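Most tested genes of glucose use and of class I presentation differed by less than 1.5-fold between the members of the 2 libraries. Of 16 tested genes of glycolysis and hypoxia, Hmox1 was past 1.5-fold higher and Pfkl, a phosphofructokinase, past 1.5-fold lower. Of all 2189 genes, 6.12% were past that fold higher and 8.63% lower. The list's median log2 ratio was 0.18 against -0.01 over all genes. G0s2 of the rule is among the 16 genes, and its own ratio is not read. The glucose transporter gene Slc2a3 had 837 CPM in distraction members and 693 CPM in sham members (ratio 1.21, 1.05 to 1.39), and the lactate exporter gene Slc16a3 1097 and 946 CPM. Pygl, the glycogen phosphorylase of liver and neutrophils, had 453 CPM in distraction members and 442 CPM in sham members.

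None of the 7 tested genes of class I presentation was past 1.5-fold, against 14.8% of all genes, which does not set so short a list apart. B2m, the shared light chain of class I molecules, had 8393 CPM in distraction members and 7887 CPM in sham members. The heavy-chain genes RT1-A1 (508 and 707 CPM, ratio 0.718, 0.619 to 0.835) and RT1-A2 (502 and 677 CPM, ratio 0.742, 0.637 to 0.864) were lower in distraction members. Both differences were under 1.5-fold, with intervals below 1. Reads of these near-identical genes may be split between them. In both libraries all 6 class I genes compared were past 1.5-fold higher in members than in the other kept neutrophils, where 30.9% of all genes were.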
